A study of Oryctolagus cuniculus with 6 samples.

Results

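The 10 genes described here make glutathione, spend it on lipid peroxides, or shape the membrane lipids that become peroxidised, and none of them differed between normal and proliferative vitreoretinopathy (PVR) retinas past an adjusted p of 0.05. They were chosen by name as GPX4, AIFM2, SLC7A11, SLC3A2, GCLC, GCLM, GSS, GSR, ACSL4 and LPCAT3, and all 10 were found among the 28788 genes of the files. The study sequenced polyadenylated RNA from 3 retina samples of normal rabbits and 3 retina samples of rabbits with PVR. In the model, adult rabbits under ketamine and pentobarbital had the sclera punctured, some vitreous removed, and platelet-rich plasma injected into the vitreous cavity. Strain, sex, the treatment of the control eyes and the time from injection to collection are not given in the sources used here. Whether samples of a group came from separate animals is likewise not given, so the p-values measure the spread between these samples, which may be technical.

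Ferroptosis is a form of cell death in which iron-driven peroxidation of membrane phospholipids goes unchecked. Cells hold it back mainly by importing cystine, reducing it to cysteine, building glutathione from it and letting the selenoprotein GPX4 use that glutathione to reduce phospholipid hydroperoxides. The retina has much to oxidise, since photoreceptor outer segments are rich in polyunsaturated fatty acids and receive light and high oxygen. Much of its glutathione is held by Müller glia.

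Each sample held from 31904593 to 43035080 counted reads. Transcripts of 12 rod and cone genes summed to between 30384 and 50387 CPM (counts scaled to a common library size) in every sample, and no listed marker gene was at 0 in all samples. One library stood apart. In normal replicate 2, 9 lens genes summed to 32732 CPM, against 12.2 and 15.6 in the other normal samples and between 262 and 300.2 in PVR.

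FPKM, the read count divided by gene length and by the counted reads of the sample, sets the levels of different genes on a common scale. GPX4 was by far the most abundant of the 10 genes, with a mean FPKM of 187 over the 6 samples, and it exceeded 99.2% of all genes with any count. SLC3A2 followed with a mean FPKM of 32.3, then GCLC with 28.8, LPCAT3 with 23.6, GSR with 23.1 and ACSL4 with 21.4. Lower still were GCLM with 12.4, SLC7A11 with 8.59 and GSS with 6.12. AIFM2 was at the bottom with a mean FPKM of 0.551 and between 16 and 44 reads per sample. Some neighbours in this order were not separated. LPCAT3 was above GSR in 3 of the 6 samples, and GSR above ACSL4 in 5 of 6. SLC7A11 exceeded GSS in 5 of 6 samples, and SLC3A2 exceeded GCLC in all 6 although their ranges overlapped. The steps from GPX4 to SLC3A2, GCLC to LPCAT3, ACSL4 to GCLM, GCLM to SLC7A11 and GSS to AIFM2 held without overlap over all samples.

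**Figure D1:**
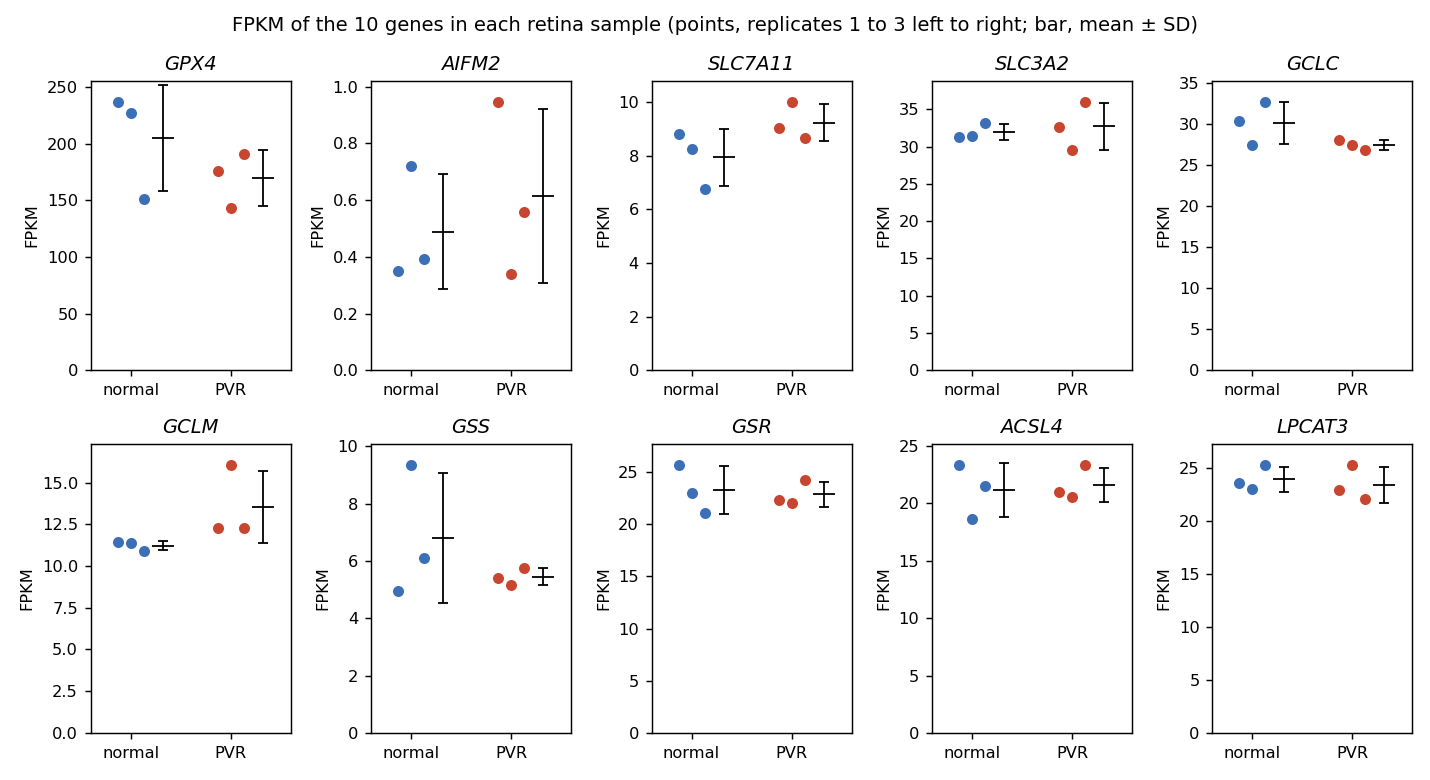
FPKM (vertical axis, starting at 0) of each of the 10 genes in the 3 normal samples (blue) and the 3 PVR samples (red), with the mean ± SD of each group as a black bar. The groups overlap for every gene but GCLM, whose 3 PVR samples lie between 12.3 and 16, above the 3 normal samples.

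The counts were tested by the quasi-likelihood method of edgeR, with Benjamini-Hochberg adjustment over all 18697 genes tested. Over all genes 1.7% of genes were past an adjusted p of 0.05, 1.09% higher and 0.615% lower in PVR, and 1.01% also had a log2 fold change beyond 1. Of the 10 genes, 0 passed either rule, and 1 had an unadjusted p under 0.05, against 21.2% of all genes tested. DESeq2 and limma-voom also called 0 of the 10, and so did each test with a sample left out. The fitted log2 fold changes were above 0 for 3 genes and below 0 for 7. Their median was -0.07, and the median over all genes tested was -0.01. The precision was enough to bound most of these differences. For 9 of the 10 genes the 95% interval of the log2 fold change lay wholly between -1 and 1, that is, within a 2-fold change either way. For 7 of the 10 it lay between -0.5 and 0.5. Of all genes tested, 61.4% and 30.7% met these limits, and of the 10637 whose mean log2 CPM reached 3, 90.4% and 53.2% did.

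**Figure D2:**
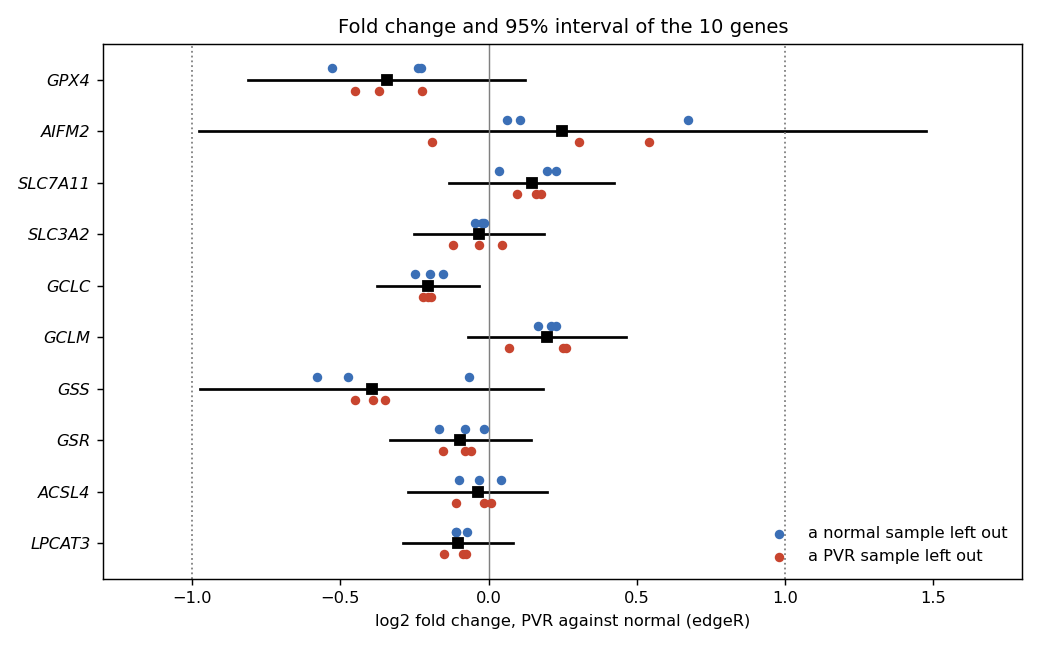
Log2 fold change of PVR against normal (horizontal axis) for each gene, with the edgeR estimate as a black square and its 95% interval as a line. Blue and red points are the estimates with a normal or a PVR sample left out, and the dotted lines mark -1 and 1. All intervals but that of GCLC include 0, and AIFM2 has the widest, from -0.98 to 1.47.

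GPX4 reduces phospholipid hydroperoxides inside membranes, a reaction other glutathione peroxidases do poorly. Its FPKM was 236, 227 and 151 in normal replicates 1, 2 and 3, and 176, 143 and 191 in PVR replicates 1, 2 and 3. The groups overlapped, because normal replicate 3 lay below PVR replicates 1 and 3. The means were 205 ± 46.9 (SD, n = 3) in normal and 170 ± 24.5 (SD, n = 3) in PVR. In edgeR GPX4 had a fitted log2 fold change of -0.34, with a standard error of 0.20, a 95% interval from -0.81 to 0.12 and an adjusted p of 0.356. As a fold this was 0.788, with bounds of 0.570 and 1.09, which leaves room for no difference and for a level of 0.570 of normal. Without normal replicate 3 the log2 fold change of GPX4 was -0.53 (adjusted p = 0.102 from edgeR), and without PVR replicate 2 it was -0.23. GPX4 was also one of the more variable abundant transcripts, with a within-group spread on the log2 scale above that of 88.8% of the 10637 genes whose mean log2 CPM reached 3. All 12 rod and cone genes had fitted values lower in PVR. In edgeR 0 of the 12 were past an adjusted p of 0.05 and 6 had an unadjusted p under 0.05. Of all genes tested, 1.7% and 21.2% met these limits. The summed level of the 12 rod and cone genes was 42665 to 50387 CPM in normal and 30384 to 41632 CPM in PVR. The part of this in the GPX4 values was not tested. In bulk tissue, fewer cells of a type and less RNA per cell cannot be told apart. The study also measured GPX4 protein by western blot and reports it as higher in retinas of the rabbit model than in controls. That is protein rather than RNA, and the blot was not analysed here.

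AIFM2, better known as FSP1, is an NAD(P)H-dependent reductase that regenerates lipid-soluble radical traps such as reduced coenzyme Q at the plasma membrane, in parallel to GPX4. It was read 20, 43 and 23 times in normal replicates 1, 2 and 3, and 44, 16 and 35 times in PVR replicates 1, 2 and 3. The highest and the lowest counts were both in PVR. Counting error alone allows 9.15 to 26 reads around the count of 16 and 32 to 59.1 around the count of 44 (exact Poisson, 95%). In edgeR AIFM2 had a fitted log2 fold change of 0.25, with a standard error of 0.52, a 95% interval from -0.98 to 1.47 and an adjusted p of 0.807, and it was -0.19 without PVR replicate 1 and 0.67 without normal replicate 2. Expressed as folds, the interval of AIFM2 ran from 0.508 to 2.78, so a 2-fold higher level in PVR lay inside it.

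SLC7A11 and SLC3A2 form system xc-, the antiporter that brings in cystine in exchange for glutamate. SLC7A11 is the transporting light chain. Its FPKM was 8.80, 8.26 and 6.74 in normal replicates 1, 2 and 3, and 9.04, 9.99 and 8.67 in PVR. The groups overlapped only through normal replicate 1, which lay just above PVR replicate 3. In edgeR SLC7A11 had a fitted log2 fold change of 0.14, with a standard error of 0.12, a 95% interval from -0.13 to 0.42 and an adjusted p of 0.505. This estimate leaned on normal replicate 3, the lowest sample, and was 0.03 without it. SLC3A2, the heavy chain that anchors SLC7A11 and several other amino acid transporters in the membrane, was among the steadiest of the genes in the normal samples. Its FPKM was 31.2, 31.4 and 33.2 there, and 32.7, 29.5 and 35.9 in PVR. In edgeR SLC3A2 had a fitted log2 fold change of -0.03, with a standard error of 0.09, a 95% interval from -0.25 to 0.19 and an adjusted p of 0.859. On the FPKM scale, which divides by total reads rather than by TMM-scaled library sizes, PVR samples stood 0.07 higher on log2 relative to normal, and there the difference of SLC3A2 was 0.030.

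Glutathione synthesis begins with glutamate-cysteine ligase, which joins glutamate and cysteine and sets the pace of the pathway. GCLC is its catalytic subunit. Its FPKM was 30.4, 27.5 and 32.7 in normal replicates 1, 2 and 3, and 28.1, 27.4 and 26.9 in PVR. The FPKM ranges touched, with normal replicate 2 below PVR replicate 1, whereas on the TMM-scaled CPM scale all PVR samples, at 94.4 to 97.9, lay below all normal samples, at 103 to 117. The fitted value for GCLC was -0.21 on the log2 scale, with a standard error of 0.07 and a 95% interval from -0.38 to -0.03. It was the single gene of the 10 with an unadjusted p under 0.05, at 0.0255, and its adjusted p was 0.177 from edgeR. Its adjusted p was between 0.178 and 0.412 under the 16 other settings, none of which changed the sign.

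GCLM, the modifier subunit, raises the affinity of GCLC for glutamate and relieves its inhibition by glutathione. Its FPKM was 11.4, 11.4 and 10.9 in normal replicates 1, 2 and 3, and 12.3, 16 and 12.3 in PVR. The PVR samples lay above all normal samples, replicates 1 and 3 only narrowly and replicate 2 by more. In edgeR GCLM had a fitted log2 fold change of 0.20, with a standard error of 0.11, a 95% interval from -0.07 to 0.46 and an adjusted p of 0.355, and it was 0.07 without PVR replicate 2. GCLC and GCLM were thus the 2 genes of the 10 whose groups did not overlap on the CPM scale, one in each direction. Over all genes tested, 28% did not overlap, 13.4% being higher and 14.6% lower in PVR, so 2 of 10 did not exceed the background.

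GSS adds glycine to complete glutathione. Its FPKM was 4.94, 9.34 and 6.11 in normal replicates 1, 2 and 3, and 5.42, 5.18 and 5.75 in PVR. The PVR samples all lay between normal replicates 1 and 3, and normal replicate 2 was far above the rest. In edgeR GSS had a fitted log2 fold change of -0.39, with a standard error of 0.25, a 95% interval from -0.97 to 0.18 and an adjusted p of 0.389. This was the largest of the 10 in size, but without normal replicate 2 it was -0.07 (adjusted p = 0.869). That sample was also the one with 32732 CPM of lens transcripts, and whether these had a part in its GSS value was not tested. GSR, which uses NADPH to return oxidised glutathione to its reduced form, had an FPKM of 25.7, 23.0 and 21.1 in normal and 22.3, 22 and 24.2 in PVR. Those groups overlapped throughout. In edgeR GSR had a fitted log2 fold change of -0.10, with a standard error of 0.10, a 95% interval from -0.33 to 0.14 and an adjusted p of 0.611. Leaving out normal replicate 1 gave -0.017, and leaving out normal replicate 3 gave -0.17.

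ACSL4 and LPCAT3 act on the other side of the balance, by loading membranes with oxidisable lipid. ACSL4 activates arachidonic and adrenic acid as coenzyme A esters. Its FPKM was 23.3, 18.6 and 21.5 in normal replicates 1, 2 and 3, and 21.0, 20.6 and 23.3 in PVR, a near-complete overlap. In edgeR ACSL4 had a fitted log2 fold change of -0.04, with a standard error of 0.10, a 95% interval from -0.27 to 0.20 and an adjusted p of 0.854, and on the log2(FPKM + 1) scale it was 0.034. It was -0.10 without normal replicate 2. LPCAT3 inserts such acyl chains into lysophospholipids. Its FPKM was 23.5, 23.0 and 25.2 in normal and 22.9, 25.2 and 22 in PVR. In edgeR LPCAT3 had a fitted log2 fold change of -0.10, with a standard error of 0.08, a 95% interval from -0.29 to 0.08 and an adjusted p of 0.480. LPCAT3 had one of the smallest spreads of the 10 genes, with only 7.30% of genes that reached a mean log2 CPM of 3 varying less within groups, and GCLC was close to it at 8.24%. In RefSeq's annotation LPCAT3 overlaps a long noncoding RNA, whose reads might be counted with it.

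Ratios within a sample do not depend on how libraries are scaled, and 4 were compared. The ratio of GCLC to GCLM by FPKM was 2.66, 2.42 and 3.0 in normal replicates 1, 2 and 3, and 2.29, 1.71 and 2.19 in PVR. Every PVR sample was below every normal sample. On the log2 scale the mean of the GCLC to GCLM ratio was 1.43 ± 0.154 (SD, n = 3) in normal and 1.03 ± 0.226 (SD, n = 3) in PVR, a difference of -0.39. The 2-sided exact permutation test gave p = 0.1, which is the lowest value possible with 3 samples a group, and 0.4 after Benjamini-Hochberg adjustment over the 4 ratios. The difference was between -0.26 and -0.47 with single samples left out. The other ratios overlapped between groups. ACSL4 to GPX4, between 0.0819 and 0.143 in normal and between 0.119 and 0.144 in PVR, differed by 0.29 on the log2 scale (exact permutation p = 0.3). Leaving out normal replicate 3 gave 0.51, and leaving out normal replicate 2 gave 0.11. SLC7A11 to SLC3A2 differed by 0.19 and AIFM2 to GPX4 by 0.53, each with an exact permutation p of 0.5. SLC7A11 to SLC3A2 was at 0.053 without normal replicate 3 and 0.064 without PVR replicate 2, and AIFM2 to GPX4 at 0.19 without PVR replicate 1 and 0.22 without normal replicate 1.

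**Figure D3:**
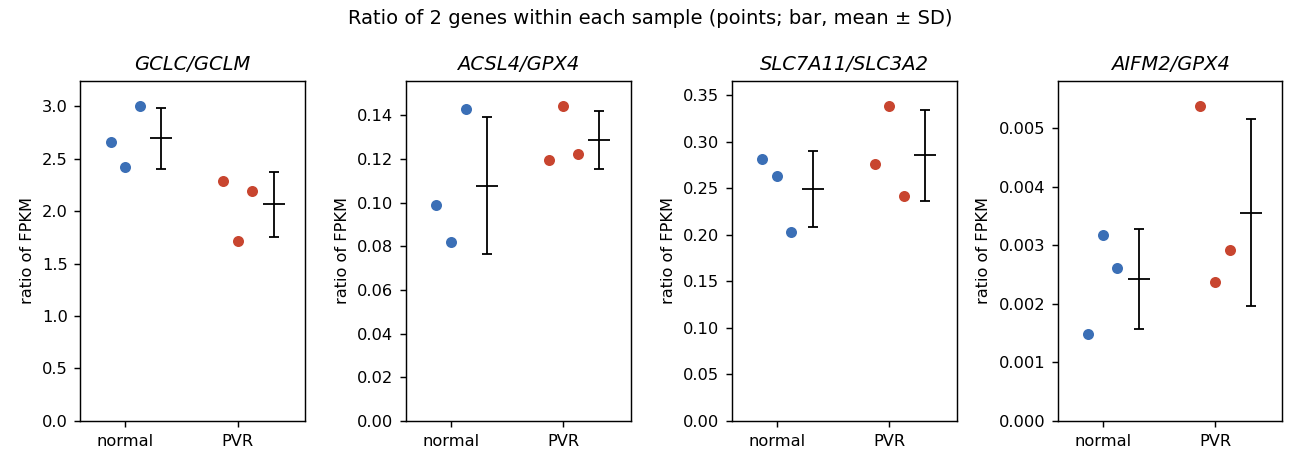
Ratio of the FPKM of 2 genes (vertical axis, starting at 0) within each normal (blue) and PVR (red) sample, with the mean ± SD of each group as a black bar. The GCLC to GCLM ratio is 2.42 to 3.0 in normal and 1.71 to 2.29 in PVR, and the other 3 ratios overlap.

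Around these genes, 8 lists of related pathway genes held 151 genes that could be tested. In edgeR 0 of them were higher and 3 were lower in PVR at an adjusted p under 0.05, or 1.99%, close to the 1.7% of all genes tested. An unadjusted p under 0.05 was found for 47 of the 151, or 31.1%, against 21.2% of all genes tested. DESeq2 called 5 higher and 15 lower, and without normal replicate 2 edgeR called 0. The lists were chosen with earlier results of these data known.

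Of the 28 tested genes of polyunsaturated lipid remodelling and oxidation, 9 had fitted values higher in PVR and 19 lower. At an adjusted p under 0.05 in edgeR 0 were higher and 2 lower, against 1.7% of all genes tested in either direction. An unadjusted p under 0.05 was found for 8 of the 28, against 21.2% of all genes tested. The median log2 fold change was -0.18. FADS1 and FADS2 are the desaturases that turn dietary fatty acids into long polyunsaturated ones, and they are neighbours in the rabbit annotation. FADS1 had an FPKM of 40.7, 46.7 and 38.0 in normal and 22.3, 21.3 and 25.6 in PVR, with no overlap. Its log2 fold change in edgeR was -0.93, with a standard error of 0.12 and an adjusted p of 0.0212. FADS2 had an FPKM of 29.5, 36.9 and 35.5 in normal and 17, 13.7 and 18.3 in PVR. The edgeR estimate was -1.13 on the log2 scale, with a standard error of 0.15 and an adjusted p of 0.0230. FADS1 stayed between -1.03 and -0.82 and FADS2 between -1.23 and -1.01 on the log2 scale with single samples left out, but the adjusted p was 0.0577 for FADS1 and 0.0772 for FADS2 without normal replicate 2, and 0.157 and 0.153 without PVR replicate 1. For FADS1 it was also above 0.05 without normal replicate 1, at 0.0609, and without PVR replicate 2, at 0.0586. ELOVL5, which elongates their products and was singled out after its values were seen, had an FPKM of 13.8 ± 0.955 in normal and 9.91 ± 0.638 in PVR (SD, n = 3 each). Its adjusted p was 0.0549 from edgeR and 0.00150 from DESeq2. A list of 10 Müller glia genes was split, with 5 fitted higher and 5 lower in PVR. Its log2 fold changes ran from -1.11 to 1.39, with a median of 0.03. Singled out after their values were seen, GLUL and RLBP1 were at -1.11 and -0.89, and CLU was at 1.07. At an adjusted p under 0.05 (edgeR) 1 of the 10 was higher and 2 were lower. Of all genes tested, 1.09% were higher and 0.615% lower. The summed level of the Müller glia list was 3471 to 4320 CPM in normal and 4333 to 4492 CPM in PVR. Whether glial content had a part in the FADS values was not tested.

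**Figure D4:**
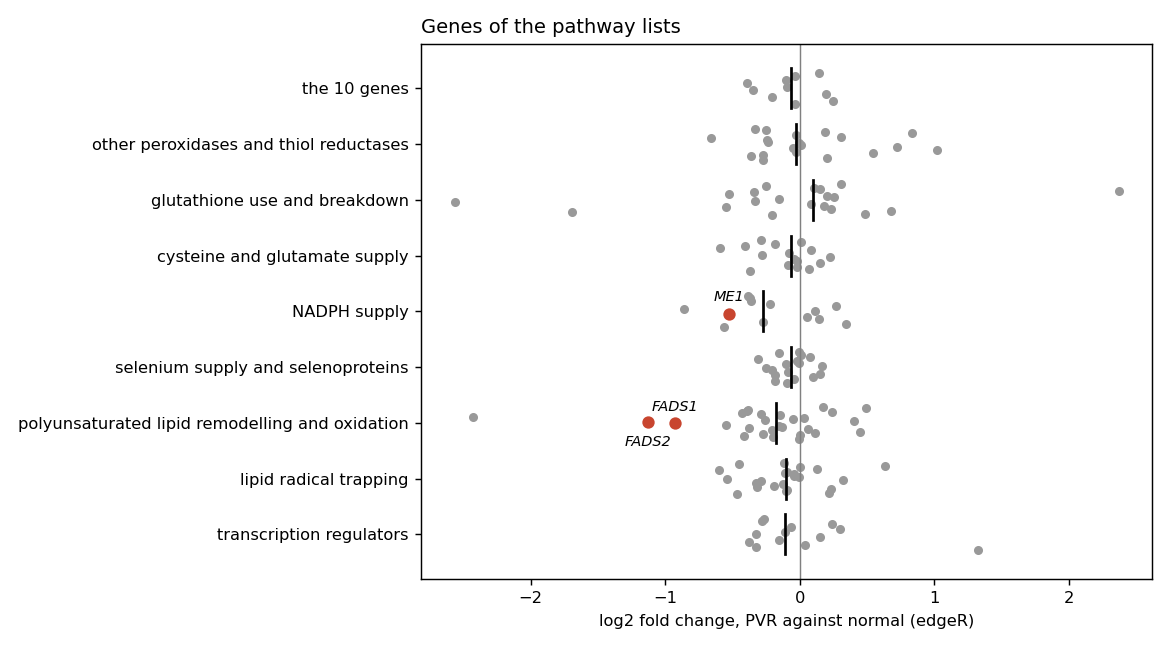
Log2 fold change of PVR against normal (horizontal axis, edgeR) for each tested gene of the pathway lists, 1 point per gene, with the median of each list as a black line. Red points have an adjusted p under 0.05 and are FADS1, FADS2 and ME1, all lower in PVR. The 10 genes lie between -0.39 and 0.25.

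NADPH feeds GSR and the thioredoxin reductases. Of 13 NADPH supply genes, 5 had fitted values higher in PVR and 8 lower. At an adjusted p under 0.05 in edgeR 0 were higher and 1 was lower, against 1.7% of all genes tested in either direction. An unadjusted p under 0.05 was found for 9 of the 13, against 21.2% of all genes tested. This was the highest share of the 8 lists, and the median log2 fold change was -0.28. The gene past an adjusted p of 0.05 was ME1, the cytosolic malic enzyme, with an FPKM of 28.8, 29.9 and 36.4 in normal and 24.0, 23.6 and 21.6 in PVR. The edgeR estimate was -0.53 on the log2 scale, with a standard error of 0.09 and an adjusted p of 0.0465. The adjusted p stayed under 0.05 in only 4 of 16 other settings, and leaving out any single sample raised it above 0.05, to as much as 0.228.

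In the other 6 lists 0 genes passed an adjusted p of 0.05 in edgeR, and the numbers with an unadjusted p under 0.05 that follow stand against 21.2% of all genes tested. Other peroxidases and thiol reductases had 7 of 20 at an unadjusted p under 0.05 and a median log2 fold change of -0.03. By fitted value 8 of the 20 were higher in PVR and 12 lower. The largest in size was GPX3, the secreted peroxidase, with 1.02 and an FPKM of 8.34, 7.25 and 13.6 in normal and 21.0, 10.9 and 29.7 in PVR (adjusted p = 0.189 from edgeR, 0.0228 from DESeq2). Its log2 fold change was 0.64 without PVR replicate 3. GPX1, the abundant cytosolic peroxidase, was singled out after its values were seen. It had an FPKM of 33.7 ± 5.91 in normal and 51.5 ± 2.51 in PVR (SD, n = 3 each, no overlap), a log2 fold change of 0.54 and an adjusted p of 0.0859 from edgeR. DESeq2 gave an adjusted p of 0.00825 for GPX1, and edgeR gave 0.0273 without normal replicate 3. GPX1 and GPX4 draw on the same selenium supply, and a list of 18 genes joined those that supply selenium or insert selenocysteine with other selenoproteins. Of these, 2 had an unadjusted p under 0.05, the selenoprotein SELENOK and the receptor LRP8. The largest in size was SELENOW, a small selenoprotein, at -0.31 on the log2 scale (edgeR, adjusted p = 0.255) and at -0.19 without PVR replicate 2.

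Genes that use or break down glutathione had 8 of 20 at an unadjusted p under 0.05 and a median log2 fold change of 0.10. GSTM2, a glutathione transferase of the mu class, had 124, 118 and 127 counts in normal and 10, 9 and 43 in PVR, a difference of -2.57 on the log2 scale (edgeR, adjusted p = 0.0626). Transferases of this class are close paralogs, so reads may be split among them. MGST1, a membrane-bound transferase singled out after its values were seen, had 13, 18 and 59 counts in normal and 127, 143 and 163 in PVR, a difference of 2.37 (edgeR, adjusted p = 0.0770). Other settings put them past the threshold. GSTM2 had an adjusted p under 0.05 in 5 of 15, DESeq2, limma-voom, both FPKM scales and edgeR without PVR replicate 3. MGST1 did in 3 of 16, DESeq2, log2(FPKM + 1) and edgeR without normal replicate 3, where its log2 fold change was 3.30.

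The cysteine and glutamate supply list had 3 of 16 genes at an unadjusted p under 0.05, with SLC1A4, a neutral amino acid carrier, at -0.60 on the log2 scale (edgeR, adjusted p = 0.139). DESeq2 gave SLC1A4 an adjusted p of 0.0298, and without normal replicate 3 it was at -0.37. The lipid radical trapping list had 5 of 23, with TTPA, the alpha-tocopherol transfer protein, at 0.63 (edgeR, adjusted p = 0.281). By fitted value 5 of the 23 were higher in PVR and 18 lower. The transcription regulators had 5 of 13 at an unadjusted p under 0.05. By fitted value 5 of the 13 were higher in PVR and 8 lower, with a median log2 fold change of -0.11. ATF3, a stress-induced factor, had an FPKM of 1.54, 2.32 and 2.34 in normal and 6.15, 6.40 and 3.86 in PVR, without overlap. It differed by 1.33 on the log2 scale (edgeR, adjusted p = 0.0612), and DESeq2 gave an adjusted p of 0.000107. NFE2L2, the activator of GCLC, GCLM and SLC7A11, and KEAP1, its inhibitor, were singled out after their values were seen, at 0.24 and -0.33 with adjusted p of 0.109 and 0.106 from edgeR.

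**Figure D5:**
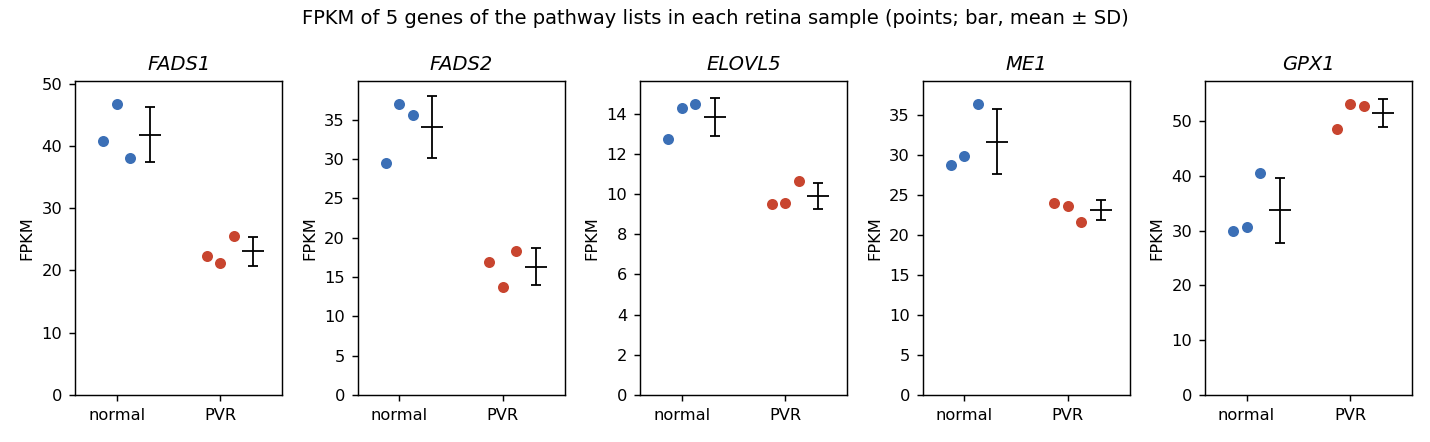
FPKM (vertical axis, starting at 0) of FADS1, FADS2, ELOVL5, ME1 and GPX1 in the 3 normal (blue) and 3 PVR (red) samples, with the mean ± SD of each group as a black bar. The groups are apart for all 5, but only FADS1, FADS2 and ME1 had an adjusted p under 0.05 in edgeR. On the CPM scale the groups were apart for 28% of all genes tested. All 5 were picked by their test or, for ELOVL5 and GPX1, after their values were seen.

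Of the other cell types, 11 tested microglia and macrophage genes all had fitted values higher in PVR, with 0 past an adjusted p of 0.05 and 6 with an unadjusted p under 0.05 (edgeR), against 21.2% of all genes tested. Their sum was 32.9 to 74.1 CPM in normal and 84.9 to 122 CPM in PVR. Of all genes tested, 0.615% were lower at an adjusted p under 0.05. Among 7 pigment epithelium genes 2 were, TTR and LRAT, and the list summed to 187 to 436 CPM in normal and 119 to 139 CPM in PVR. Among 8 oligodendrocyte genes 3 were, MAG, MOBP and ERMN, and the list summed to 249 to 1210 CPM in normal and 137 to 156 CPM in PVR. Among 8 endothelial genes 2 were, VWF and CDH5, although the list summed to more in PVR, at 701 to 724 CPM against 603 to 659 CPM in normal. Of 5 blood genes 0 passed, and their sum was 31.4 to 36.9 CPM in normal and 15.0 to 24.7 CPM in PVR. Without normal replicate 2, the lens-rich library, VWF had an adjusted p of 0.0396, and the other 6 of these genes had one above 0.05, as did RLBP1 at 0.0916. By fitted value, 5 pigment epithelium genes were lower in PVR and 2 higher, and 5 endothelial genes were lower and 3 higher. Of the blood genes 4 were lower and 1 was higher. All 8 oligodendrocyte genes were lower, all 8 with an unadjusted p under 0.05 (edgeR), against 21.2% of all genes tested. On the CPM scale all 8 were lower without overlap, against 14.6% of all genes tested. The part of these cell types in the values of the 10 genes was not tested.

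The genes most like GPX4 over the 6 samples, by the root-mean-square difference of centred log2 CPM among 9515 genes, were MCEE at 0.0479, HS6ST1 at 0.0536 and SHMT2 at 0.0587. Those most like SLC7A11 were SLC7A6OS at 0.0256, HES1 at 0.0459 and TMEM263 at 0.0461. These are likenesses over 6 samples and carry no test.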

How the data were processed

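Per the labels, the authors trimmed the reads with fastp. They used HISAT2 for alignment to OryCun2.0 and htseq-count for gene counts. The deposited values are these raw counts and FPKM. The strand setting and annotation release are not given in the sources used here. The paper names the NEBNext Ultra II kit, the labels the VAHTS Universal V6 kit. Count divided by FPKM gave 1 length per gene in all samples (largest relative difference 4.24e-09), so the deposited FPKM uses total counts as depth.

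Groups were taken from the sample titles. Counts were tested in R 4.3.3 with edgeR 4.0.16 (filterByExpr, TMM, quasi-likelihood), with p-values adjusted by Benjamini-Hochberg over the 18697 genes kept. The standard error is the log2 fold change divided by the square root of F, and 95% intervals use the test's degrees of freedom. Ratios were compared in SciPy 1.17.1. Intervals around counts cover counting error only. Alternatives were DESeq2 1.42.0, limma 3.58.1 (voom, and log2(FPKM + 1) and log2(FPKM + 0.1)), RLE and upper-quartile factors, lens genes left out, other count filters, the replicate number as a block, and leaving out single samples. The tests were checked on simulated counts with 200 of 18697 genes changed. There edgeR recovered 37 of 100 2-fold and 85 of 100 4-fold changes, and 15 of its 137 calls were false. DESeq2 recovered 60 and 93, and 66 of its 219 calls were false. A 2-fold change can thus go uncalled by edgeR, and in the simulation a larger share of the DESeq2 calls was false. Both rates depend on how many genes were changed there, and the number truly changed in these data is not known. Whether calls by DESeq2 alone are as often false in the data was not tested. Of 172 listed pathway genes, 162 were matched by symbol or, for 2, by gene identifier through RefSeq's mOryCun1.1 table, which also gave neighbours. It is not the files' build, so no coordinates are printed.

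Named were the 10 genes, the genes of each list with an adjusted p under 0.05 or else the one with the largest change, and the 3 nearest patterns of GPX4 and SLC7A11. Also named, outside that rule, were ELOVL5, GPX1, PRDX5, MGST1, NFE2L2, KEAP1, SELENOK, LRP8 and the marker genes, chosen after their values were seen. The 10 genes and the lists were chosen with earlier results of these data known.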

Additional observations from a re-analysis of the deposited data

How the results depend on the processing

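None of the 16 other settings called any of the 10 genes, and the smallest adjusted p among their 160 values was 0.102. In 152 of them the sign was kept. The 8 with the opposite sign belonged to genes near 0 or with few reads. SLC3A2 was 0.030 with log2(FPKM + 1), 0.031 with log2(FPKM + 0.1) and 0.045 without PVR replicate 2, and between -0.12 and 0.045 with single samples left out. ACSL4 was 0.034 with log2(FPKM + 1), 0.035 with log2(FPKM + 0.1), 0.043 without normal replicate 1 and 0.0082 without PVR replicate 2, and between -0.11 and 0.043 with single samples left out. AIFM2 was -0.19 without PVR replicate 1 and between -0.19 and 0.67 with single samples left out. With 3 samples a group, no exact permutation test can pass 0.05.

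Over all genes, 129 were higher and 59 lower by more than 2-fold with an adjusted p under 0.05. DESeq2 gave 565 and 243, log2(FPKM + 1) gave 68 and 19, and limma-voom gave 37 lower and a minimum of 10 counts 31 lower. With single samples left out, the numbers were between 16 and 373 higher and between 6 and 159 lower, with 16 and 6 without PVR replicate 1, 373 and 63 without PVR replicate 3, 46 and 18 without normal replicate 2, 70 and 23 without PVR replicate 2, 211 and 159 without normal replicate 3, and 39 and 42 without normal replicate 1. Among the pathway lists, 0 were higher and 3 lower at an adjusted p under 0.05, whatever the size of the change. DESeq2 gave 5 and 15, log2(FPKM + 1) gave 1 higher, and the tests with a sample left out gave 0 to 3 higher and 0 to 6 lower. The cause of these shifts was not tested.

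With the replicate number as a block, 56 genes were higher and 26 lower, and 0 of the pathway genes were lower. Whether same-numbered samples belong together is not given in the sources used here. Their deviations from the group mean correlated at -0.013, 0.073 and 0.042, and not every sample correlated best with its own number. With 3 samples a group, these correlations cannot settle whether samples were paired.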
